A study of Homo sapiens with 6 samples.

Results

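The ABC (ATP-binding cassette) transporter genes described here come from the rows of the deposited expression table that are annotated as protein-coding and whose symbol starts with ABC, a subfamily letter from A to G and a number. They number 43 of 58735 genes, 12 in subfamily ABCA, 8 in ABCB, 11 in ABCC, 3 in ABCD, 1 in ABCE, 3 in ABCF and 5 in ABCG. TAP1, TAP2 and CFTR belong to the same family under other symbols and are given separately. The table comes from HCT116SCs, colorectal cancer stem cells that were sorted for CD44 and CD326 from the established line HCT116 and grown as tumor spheres in serum-free medium with EGF, bFGF and B27. The cells were transfected with a lipid reagent and harvested 48 h later, after negative control siRNA (NC, genotype label WT, n = 3 libraries) or siRNA against PSCA, a small surface protein anchored by a lipid tail (siPSCA, genotype label PSCA knockdown, n = 3 libraries). The titles of siPSCA 2 and siPSCA 3 carry another number in the name of the line, whereas their other labels give HCT116, and both were kept. By those labels the line is a single genetic background, the sequence of the PSCA siRNA used for these libraries is not given in the sources used here, and no label says whether the 3 libraries of a group came from separate cultures, so p-values measure only the spread between these libraries, which may be technical.

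ABC proteins bind and hydrolyse ATP in paired nucleotide-binding domains and, in most subfamilies, use that energy to move a substrate across a membrane. The ABCA proteins and much of ABCG move sterols and phospholipids. The ABCB subfamily holds P-glycoprotein together with transporters of mitochondria and lysosomes, and ABCC holds the multidrug resistance-associated proteins, which export glutathione, glucuronide and sulphate conjugates. ABCD proteins serve peroxisomes and lysosomes. ABCE and ABCF proteins carry no membrane domain and act in ribosome recycling and translation. In tumour cells the efflux pumps ABCB1, ABCC1 and ABCG2 are known for exporting cytotoxic drugs, and ABCG2 also for the dye efflux by which stem-like side populations are sorted.

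Expression was given as FPKM, reads on a gene divided by its length and by the library total, so levels of different genes are compared per length. Reads on genes ranged from 16099716 to 17302219 per library. PSCA itself had 4, 12 and 15 reads in NC against 9, 9 and 7 in siPSCA, which overlapped, so the groups rest on the labels. Of 8 colorectal epithelial markers 7 reached an average of 1 FPKM, among them CD44 and EPCAM (the gene of CD326), and VIL1 was near 0. None of 5 leukocyte markers reached that level, CD3E had no read, and their summed FPKM was 0.105 to 0.396 in NC and 0.250 to 0.443 in siPSCA. Of 8 fibroblast and endothelial markers only COL1A1 reached it. The summed FPKM of that list was 3.69 to 5.99 in NC and 6.39 to 6.97 in siPSCA. COL1A2 was listed at 0 in all siPSCA libraries and DCN and CDH5 in all NC libraries. In the other group COL1A2 had 2 reads in sum, DCN 3 and CDH5 4, so these zeros do not separate the groups. The part of such cells in the results was not tested. In bulk RNA, fewer cells of a type and less RNA per cell cannot be told apart.

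The level of 22 ABC genes was high enough for the main test, an average of 1 FPKM or more across the 6 libraries, and the other 21 lay under it. For the 22 genes the linear model of limma was fitted to log2(FPKM + 1) over all 13796 genes past the minimum, with Benjamini-Hochberg adjusted p-values (threshold 0.05). A log2 fold change is siPSCA minus NC on this scale, which understates the change of genes with a low FPKM. Values by library are given in the order of replicates 1, 2 and 3.

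The ABC genes were, on balance, higher after siPSCA. Of the 22 tested genes 12 rose (54.5%, against 26.6% of all genes tested), 2 fell (9.09%, against 24.2%) and 8 did not pass the threshold. In both directions together 14 were called (63.6%), against 50.7% of all genes. The libraries of the groups did not overlap in 17 of the 22 genes (77.3%, against 64.5%). The median log2 fold change of the 22 genes was 0.25, against 0.01 over all genes tested, and 18 of the 22 values were positive (81.8%, against 50.9%). Changes were small on this scale: 18.2% of the ABC genes moved by more than 0.5, against 27.0% of all genes. That share rests on the added 1, which shrinks changes at low FPKM. With limma-voom on recovered reads the median was 0.33, and ABCB9, ABCC3, ABCC5, ABCF2 and ABCF3 also moved by more than 0.5. The share of all genes was not counted for limma-voom, so no rank against all genes is drawn.

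**Figure D1:**
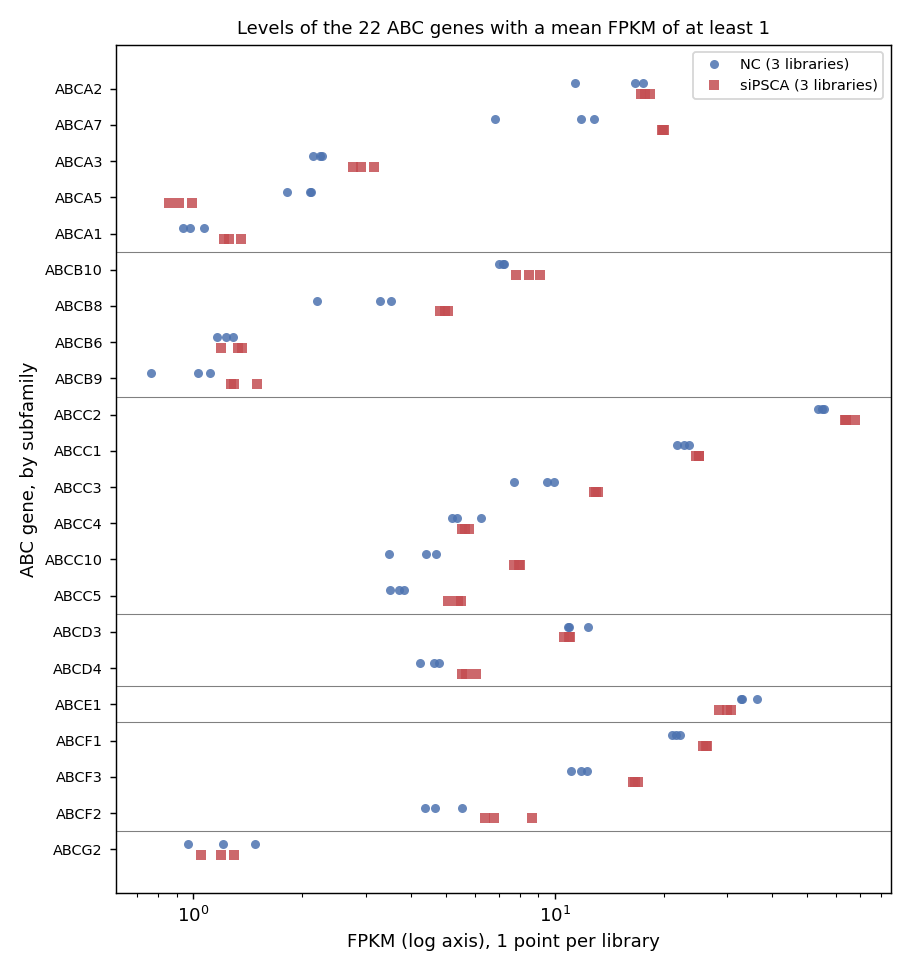
FPKM (log axis) of the 22 tested ABC genes, by subfamily from ABCA at the top to ABCG at the bottom, with 1 point per library (circles NC, squares siPSCA, 3 each). In 15 genes all siPSCA points lie to the right of all NC points, in ABCA5 and ABCE1 they lie to the left, and in the other 5 the groups overlap.

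The fold changes of the ABC genes followed the base composition of their transcripts. The median GC content of the 22 genes was 52.6%, against 48.1% of all genes tested, so the shares above compare sets of unlike GC content. Over the 22 genes, fold change and GC content had a Spearman correlation of 0.69 (over all genes tested 0.66), given as a description because all points come from the same 6 libraries. The 9 ABC genes with a GC content over 55% all had positive values with a median of 0.48, and 6 of them rose. Of the 6 genes under 45% GC, 2 had positive values and the median was -0.04. Among these 6 genes, 3 were called, ABCC2 higher and ABCA5 and ABCE1 lower. Of all genes tested, at any GC content, 50.7% were called and 26.6% rose. Shares of all genes within these GC ranges were not counted. NC 3 stood apart from NC 1 and NC 2 along the same axis: its deviation from their mean (log2) had a correlation of -0.79 with GC content over the 22 genes. Because a GC trend moved with the group, the fit was repeated after a per-library trend on GC content and gene length had been removed. In this form, called GC-corrected below, 15 ABC genes were called (68.2%, against 39.4% of all genes), 13 higher and 2 lower, with a median of 0.20. Over all 13792 genes of that fit 2923 were higher and 2510 lower, with a median of 0.02. Under both fits 9 ABC genes were called in the same direction and 1 in opposite directions (ABCE1), and the sign changed in 8 of the 22. GC-corrected, the correlation of fold change with GC content over the 22 genes was -0.31, so these values are not free of a relation with GC. How much of the GC trend is technical was not tested, so GC-corrected values are given beside the results.

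**Figure D2:**
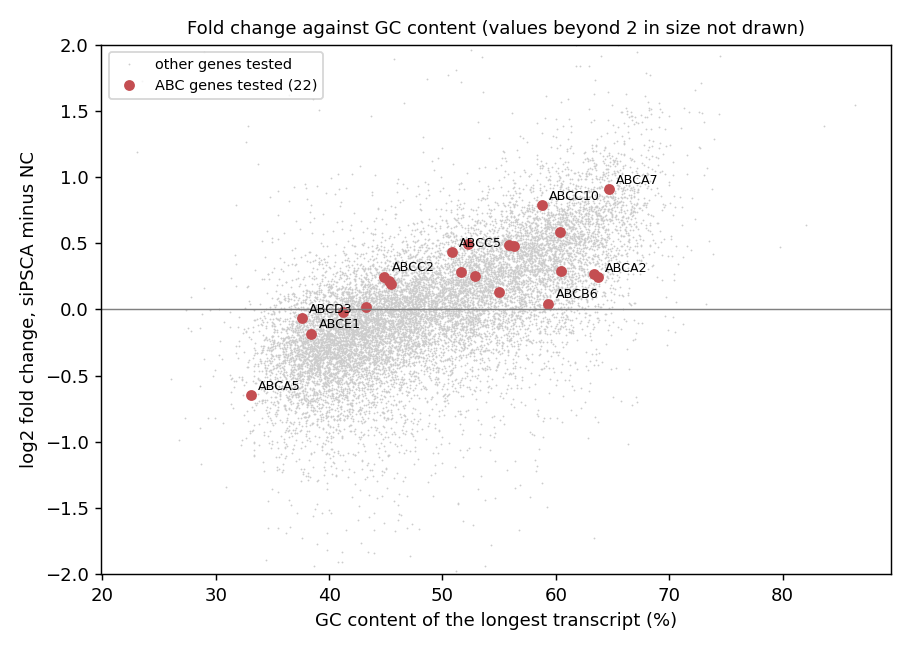
Log2 fold change (siPSCA minus NC, y axis) against the GC content of the longest transcript (%, x axis), with the 22 ABC genes as large points over all other tested genes (small grey points, 21 genes beyond 2 in size not drawn). ABCA5 is at the lower left with a GC content of 33.1%, and ABCA7, at 64.7%, is the highest ABC gene.

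Among the drug efflux pumps, ABCC2, ABCC3, ABCC5 and ABCC10 rose, and ABCC1, ABCC4 and ABCG2 did not pass the threshold. Of 9 pumps in the list 7 were tested, so 4 of 7 were called (57.1%, against 50.7% of all genes tested), all higher, with a median log2 fold change of 0.25. The share called in either direction is near that of all genes, and the share that rose is 57.1%, against 26.6%. GC-corrected, 5 of 7 were called, all higher (71.4%, against 39.4% of all genes in either direction). The promoters of the pump with the highest level and of the pump with the largest fold change are shown here, as those of the members on which the pump results turn. Each window runs from 250 bases before to 50 after a RefSeq start on GRCh38.p14, 5′ to 3′ on the gene's strand. Capitals mark a GC box (GGGCGG, or CCGCCC on the other strand), a motif bound by SP1, or an E-box (CACGTG, its own reverse complement), bound by basic helix-loop-helix factors.
ABCC2, chr10:99782390-99782689, plus strand: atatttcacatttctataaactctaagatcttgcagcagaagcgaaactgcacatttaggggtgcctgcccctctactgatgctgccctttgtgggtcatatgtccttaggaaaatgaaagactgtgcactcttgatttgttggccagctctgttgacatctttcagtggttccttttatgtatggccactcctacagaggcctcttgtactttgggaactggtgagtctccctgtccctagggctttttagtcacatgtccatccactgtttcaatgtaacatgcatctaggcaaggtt
ABCC10, the first of its 2 windows, chr6:43427291-43427590, plus strand: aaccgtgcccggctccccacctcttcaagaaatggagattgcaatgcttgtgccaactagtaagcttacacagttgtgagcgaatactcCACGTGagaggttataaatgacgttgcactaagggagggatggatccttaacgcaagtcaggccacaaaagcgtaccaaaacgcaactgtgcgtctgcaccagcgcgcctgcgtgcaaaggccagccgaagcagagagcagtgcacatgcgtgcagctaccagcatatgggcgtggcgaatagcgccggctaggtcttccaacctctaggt
The ABCC2 window has a GC content of 45% and holds neither motif. The ABCC10 window has 54.3% GC with 1 E-box and 0 GC boxes, whereas its second window, chr6:43427613-43427912, has 60.3% GC with 0 E-boxes and 5 GC boxes.

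ABCC2 (MRP2, the apical exporter of conjugates in liver, kidney and gut epithelium) had the highest level of all 43 ABC genes. Its FPKM was 55.6, 55.01 and 53.5 in NC and 63.8, 63.7 and 67.8 in siPSCA. Every siPSCA library lay above every NC library. The means were 54.7 ± 1.11 (SD, n = 3) and 65.1 ± 2.33 (SD, n = 3), and the log2 fold change was 0.25 (limma adjusted p = 0.0073, standard error 0.05). In NC 95.9% of all tested genes lay below ABCC2, its level was 2.41 times that of ABCC1, 44.9 times that of ABCG2 and 85.7 times that of ABCB1, and it held 53.7% of the summed FPKM of the pumps (52.5% in siPSCA). Its GC content is 44.9%, and its value was larger when GC-corrected, 0.39.

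ABCC10 (MRP7, an exporter of taxanes and glucuronides) had the largest fold change of the pumps. Its FPKM was 4.70, 4.40 and 3.48 in NC and 7.97, 7.73 and 8.02 in siPSCA, with no overlap and a narrower spread in siPSCA. The means were 4.20 ± 0.636 (SD, n = 3) and 7.91 ± 0.153 (SD, n = 3), a ratio of 1.89 and a log2 fold change of 0.79 (limma adjusted p = 0.0019, standard error 0.10). It was 0.43 when GC-corrected and 0.68 without NC 3, the lowest of the NC libraries, and passed the threshold under both.

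ABCC3 (MRP3, a basolateral exporter of bile salts and glucuronides) measured 9.98, 9.50 and 7.73 FPKM in NC and 13.2, 12.8 and 13.0 in siPSCA. The groups did not overlap, and NC 3 was again the lowest NC library. The log2 fold change was 0.48 (limma adjusted p = 0.0072, standard error 0.09) and 0.26, still past the threshold, when GC-corrected. ABCC5 (MRP5, which exports cyclic nucleotides and nucleotide analogues) measured 3.82, 3.70 and 3.51 FPKM in NC and 5.51, 5.39 and 5.05 in siPSCA. The groups did not overlap, and the log2 fold change was 0.43 (limma adjusted p = 0.0026, standard error 0.06). The GC content of ABCC5, 50.8%, lies close to the median of all genes tested, 48.1%, and its GC-corrected value was 0.40.

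ABCC1 (MRP1, the glutathione-conjugate exporter) was the second pump by level, at 23.5, 22.7 and 21.8 FPKM in NC and 24.7, 25.1 and 25.0 in siPSCA. All siPSCA libraries lay above all NC libraries, but the log2 fold change of 0.13 (limma adjusted p = 0.061, standard error 0.05) did not pass the threshold. Without NC 3 it was 0.10 and passed, and GC-corrected it was -0.09 and did not.

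ABCC4 (MRP4, which exports cyclic nucleotides and prostaglandins) measured 5.21, 5.35 and 6.24 FPKM in NC and 5.65, 5.53 and 5.80 in siPSCA. The siPSCA libraries lay within the NC range, with a log2 fold change of 0.02 (limma adjusted p = 0.877, standard error 0.07). The GC-corrected value was 0.22 and passed the threshold. ABCG2 (BCRP) measured 0.967, 1.48 and 1.21 FPKM in NC and 1.30, 1.05 and 1.20 in siPSCA. The siPSCA values again lay within the NC range, and the log2 fold change was -0.02 (limma adjusted p = 0.906, standard error 0.12). GC-corrected it was 0.20 and did not pass. At this low level, 5.54% of all tested genes lay below ABCG2 in NC.

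ABCB1 (P-glycoprotein) and ABCC11 (MRP8) lay under the FPKM minimum. ABCB1 had 57, 80 and 54 reads in NC and 89, 80 and 111 in siPSCA. NC 2 and siPSCA 2 had equal reads, and otherwise the siPSCA libraries were higher. Summed reads, 191 against 280, gave a siPSCA to NC ratio of 1.45 (exact binomial 95% confidence interval 1.20 to 1.76), which covers counting error only, as do all intervals on reads here. Fitted with no FPKM minimum, its adjusted p was 0.287 from limma, so the gene did not pass the test between replicates. ABCC11 had 12 reads in NC and 16 in siPSCA, between 2 and 10 per library. It shares 4.04% of its exonic bases with LONP2 (mean 10.8 FPKM) on the other strand. With no strand setting given, reads there cannot be told apart, so these few reads are uncertain.

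The summed FPKM of the 9 pumps was 104, 103 and 98.0 in NC and 123, 122 and 127 in siPSCA. Every siPSCA sum lay above every NC sum, at a ratio of 1.22 between the means. An exact permutation test, 2-sided, gave p = 0.1, the smallest it can give with 3 libraries against 3, so this test cannot pass the threshold for any sum.

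**Figure D3:**
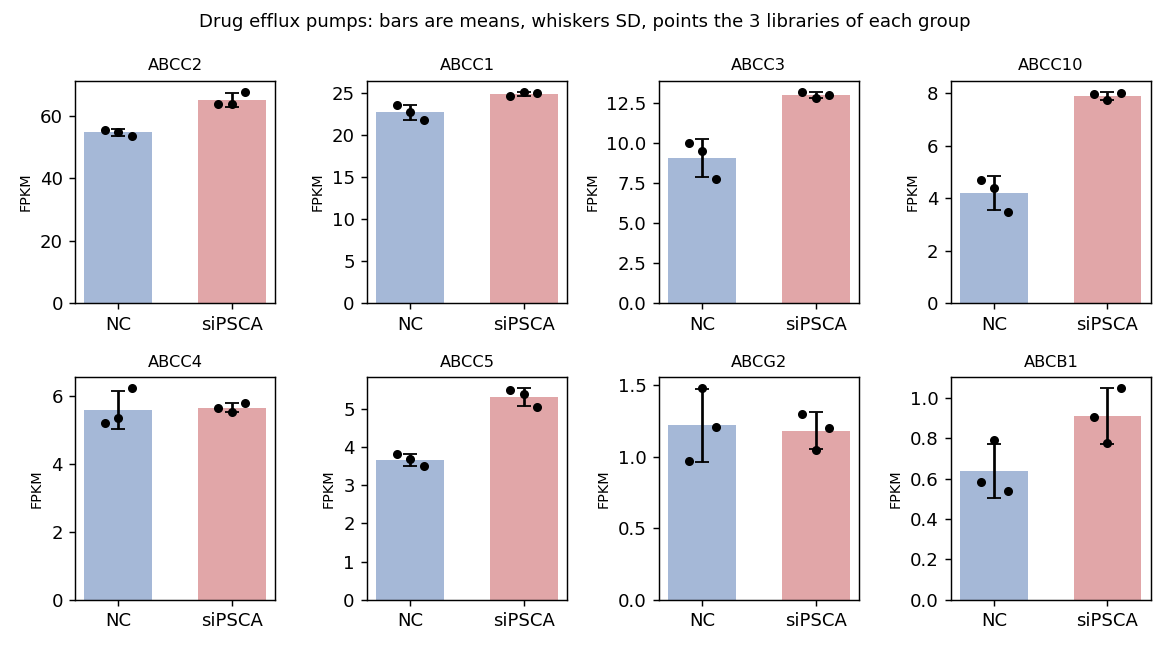
FPKM of 8 drug efflux pumps in NC and siPSCA, each panel with its own linear axis from 0 (bars are means, whiskers SD, points the 3 libraries of each group). ABCC2, ABCC1, ABCC3, ABCC10 and ABCC5 have no overlap between groups, and the points of ABCC4, ABCG2 and ABCB1 overlap.

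The lipid transporters of subfamily ABCA held the largest rise and the largest fall of the ABC genes in the fit of all libraries. Neither rank held in every fit: ABCC10 was above ABCA7 without NC 3 (0.68 against 0.65) and when GC-corrected (0.43 against 0.31), where the lowest value was that of ABCB6 (-0.36, against -0.08 for ABCA5). ABCA7 rose 1.90 times and ABCA5 fell to 0.458 of its NC level, on the means of FPKM. The transcripts of these genes lie at opposite ends of the GC range (64.7% and 33.1%), whereas both promoters are GC-rich, at 70.0% and 76.3%, which is why the windows are shown, with capitals as above.
ABCA7, chr19:1039857-1040156, plus strand: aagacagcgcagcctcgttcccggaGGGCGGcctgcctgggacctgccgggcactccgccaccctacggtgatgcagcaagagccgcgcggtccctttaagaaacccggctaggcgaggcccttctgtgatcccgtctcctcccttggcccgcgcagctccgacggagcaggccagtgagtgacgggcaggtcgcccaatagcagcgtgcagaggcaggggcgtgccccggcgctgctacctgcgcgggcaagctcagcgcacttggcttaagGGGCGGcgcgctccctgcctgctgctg
ABCA5, chr17:69327084-69327383, minus strand: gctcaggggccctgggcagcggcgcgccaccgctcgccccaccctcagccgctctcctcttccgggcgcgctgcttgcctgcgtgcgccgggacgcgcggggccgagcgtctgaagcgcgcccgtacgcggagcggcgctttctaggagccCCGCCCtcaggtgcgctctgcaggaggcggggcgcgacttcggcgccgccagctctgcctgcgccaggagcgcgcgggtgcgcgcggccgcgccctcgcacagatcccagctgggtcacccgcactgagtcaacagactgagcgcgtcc
The ABCA7 window holds 2 GC boxes and the ABCA5 window 1, and neither holds an E-box.

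ABCA7 (a phospholipid exporter whose variants are linked to Alzheimer disease) measured 12.9, 11.8 and 6.83 FPKM in NC and 20.0, 19.9 and 19.9 in siPSCA. The groups did not overlap, and NC 3 lay far under NC 1 and NC 2. The means were 10.5 ± 3.22 (SD, n = 3) and 19.9 ± 0.0703 (SD, n = 3), with a log2 fold change of 0.91 (limma adjusted p = 0.0138, standard error 0.21). It was 0.65 without NC 3 and 0.31 when GC-corrected, past the threshold under both.

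ABCA5 (a lysosomal and endosomal lipid transporter) measured 1.81, 2.11 and 2.10 FPKM in NC and 0.993, 0.855 and 0.914 in siPSCA. The groups did not overlap, and the log2 fold change was -0.65 (limma adjusted p = 0.0028, standard error 0.09). The call held without any single library, at -0.62 without NC 3. When GC-corrected the value was -0.08 and did not pass. ABCA5 had the lowest GC content of the 22 genes and the second longest model, 13158 bases.

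ABCA3 (the phospholipid transporter of lamellar bodies) rose, from 2.27, 2.15 and 2.25 FPKM in NC to 2.77, 3.17 and 2.92 in siPSCA. The log2 fold change was 0.29 (limma adjusted p = 0.0154, standard error 0.07), and the GC-corrected value was -0.13, not past the threshold. The call was also lost without siPSCA 2. ABCA1 (the cholesterol exporter to apolipoprotein A-I) and ABCA2 (an endolysosomal lipid transporter) did not pass. ABCA1 had means of 0.997 and 1.28 FPKM, with no overlap and a log2 fold change of 0.19, and its GC-corrected value of 0.35 passed. ABCA2 had means of 15.2 ± 3.32 and 17.8 ± 0.528 FPKM (SD, n = 3 each), with overlap. Its log2 fold change was 0.24, then 0.06 without NC 3, and -0.29, past the threshold, when GC-corrected. The summed FPKM of subfamily ABCA had the highest ratio of siPSCA to NC among the 7 subfamilies, 1.38 (NC 36.1, 34.2 and 24.4, siPSCA 44.2, 43.1 and 43.6). Without NC 3, the lowest library, the ratio was 1.24, under those of ABCB (1.25) and ABCF (1.28), so the rank rests on NC 3.

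ABCA5 lies in a cluster on chromosome 17 with ABCA6, ABCA8, ABCA9 and ABCA10, which were at the edge of detection. ABCA8 had 8, 6 and 16 reads in NC and 1, 0 and 0 in siPSCA, with no overlap. The ratio of summed reads, 30 against 1, was 0.0330 (exact binomial 95% confidence interval 0.00081 to 0.199). With no FPKM minimum its adjusted p was 0.150 from limma, so it did not pass, at an FPKM of at most 0.0826 in any library. ABCA10 had 11, 14 and 8 reads in NC and 7, 5 and 11 in siPSCA. ABCA9 had 11, 1 and 3 against 2, 6 and 5, and ABCA6 had 5 reads in each group. These genes overlapped between the groups. The exons of ABCA5 and ABCA10 share 318 bases on the same strand (2.42% of the ABCA5 exons), where reads of these genes cannot be told apart.

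**Figure D4:**
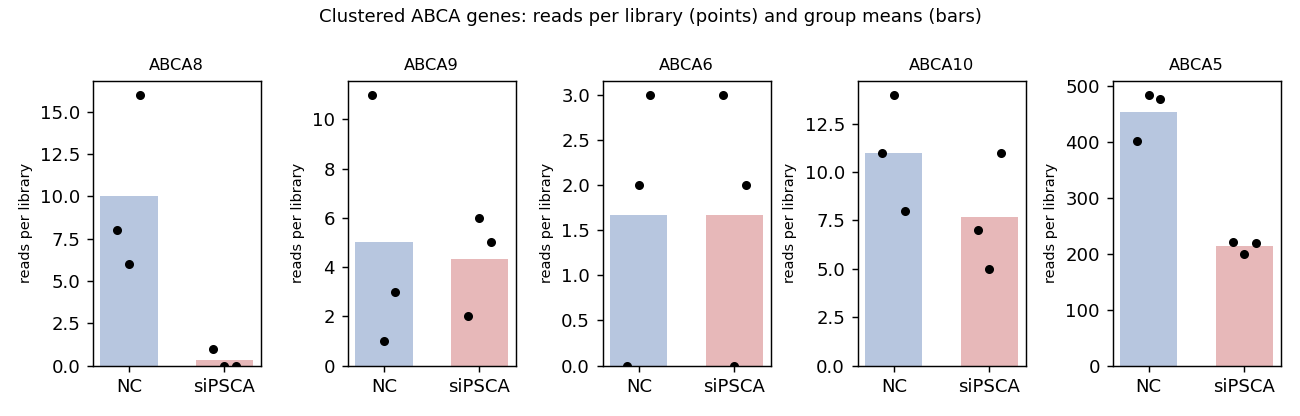
Reads per library (points) and group means (bars) of the 5 ABCA genes of the chromosome 17 cluster, each panel with its own linear axis from 0. ABCA5 and ABCA8 have all 3 siPSCA points under all NC points, and the other genes overlap at no more than 14 reads.

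Of the mitochondrial transporters tested, ABCB8 and ABCB10 rose. ABCB8 (a mitochondrial inner membrane transporter) rose, from 3.53, 3.29 and 2.19 FPKM in NC to 5.06, 4.82 and 4.96 in siPSCA. The groups did not overlap, with NC 3 lowest. The log2 fold change was 0.59 (limma adjusted p = 0.0138, standard error 0.14), 0.43 without NC 3 and 0.18, not past the threshold, when GC-corrected, and the call was lost without siPSCA 1. ABCB10 (needed for haem synthesis) rose, from 7.20, 7.22 and 7.01 FPKM in NC to 9.11, 8.49 and 7.83 in siPSCA. Here the NC libraries lay close together and every siPSCA library lay above them. The log2 fold change was 0.22 (limma adjusted p = 0.0316, standard error 0.06) and 0.29 when GC-corrected, but the call was lost in 4 of 6 fits without a library, those without NC 1, NC 2, siPSCA 1 or siPSCA 2. Over the 6 fits its fold change ranged from 0.17 to 0.27.

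ABCB6 (a porphyrin transporter) had means of 1.23 and 1.30 FPKM with overlap, and its log2 fold change of 0.04 (limma adjusted p = 0.698) did not pass the threshold. It was -0.36, past the threshold, when GC-corrected. ABCB6 shares 54.7% of its exonic bases with the gene model AC068946.2 on the same strand, so its reads are uncertain. ABCB9 (the lysosomal peptide transporter) had means of 0.968 and 1.36 FPKM without overlap between groups, at an adjusted p of 0.092 from limma. Its log2 fold change of 0.26 was -0.23 when GC-corrected, past the threshold under neither, and it overlaps 3 gene models on the other strand. Because no strand setting of the counting is given in the sources used here, reads of such pairs cannot be told apart.

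Of the peroxisomal and lysosomal ABCD genes tested, ABCD4 rose and ABCD3 did not pass the threshold. ABCD4 (lysosomal cobalamin export) measured 4.63, 4.77 and 4.25 FPKM in NC and 6.05, 5.67 and 5.54 in siPSCA, with no overlap. The log2 fold change was 0.28 (limma adjusted p = 0.0125, standard error 0.06) and 0.20 when GC-corrected, past the threshold under both, and the call was lost without siPSCA 1. ABCD4 shares 7.12% of its exonic bases with the gene model AC005519.1 (mean 1.74 FPKM) on the same strand, where their reads cannot be told apart. ABCD3 (PMP70, the abundant peroxisomal membrane transporter) was at 11.4 and 10.8 FPKM with overlap, and its log2 fold change of -0.06 became 0.30, past the threshold, when GC-corrected.

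All 4 ABC proteins without a membrane domain were called (against 50.7% of all genes tested), 3 higher and ABCE1 lower. GC-corrected, 3 of the 4 were called (against 39.4% of all genes in either direction), all higher, with ABCE1 among them. ABCE1 (the ribosome recycling factor) was the second ABC gene by level, at 32.8, 32.8 and 36.3 FPKM in NC and 30.0, 28.5 and 30.8 in siPSCA. The siPSCA libraries lay below the NC libraries, and the log2 fold change was -0.18 (limma adjusted p = 0.042, standard error 0.06). The call was lost in 5 of 6 fits without a library (all but the fit without NC 3), with fold changes from -0.21 to -0.14 over the 6, and the GC-corrected value was 0.14, past the threshold in the other direction. ABCE1 has a GC content of 38.4%, and 3 gene models share exonic bases with it on the other strand.

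ABCF1 (a factor of translation initiation that binds eIF2) measured 21.7, 22.3 and 21.1 FPKM in NC and 25.6, 26.4 and 26.2 in siPSCA. ABCF3 (a cytosolic ATPase of the same subfamily) measured 11.9, 12.3 and 11.1 against 16.7, 17.0 and 16.5. ABCF2, a further cytosolic member, measured 5.54, 4.67 and 4.36 against 8.67, 6.43 and 6.78. None of the 3 overlapped between groups. The log2 fold changes were 0.25 for ABCF1 (standard error 0.04, adjusted p = 0.0056), 0.48 for ABCF3 (standard error 0.05, adjusted p = 0.0016) and 0.50 for ABCF2 (standard error 0.12, adjusted p = 0.0184), all from limma. GC-corrected they were 0.08, 0.19 and 0.34, and ABCF1 no longer passed. ABCF2 shares 45.8% of its exonic bases with AC021097.2 on the same strand, and its call was lost without NC 2. The summed FPKM of subfamily ABCF had a ratio of 1.31, against 0.876 for ABCE1 alone.

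**Figure D5:**
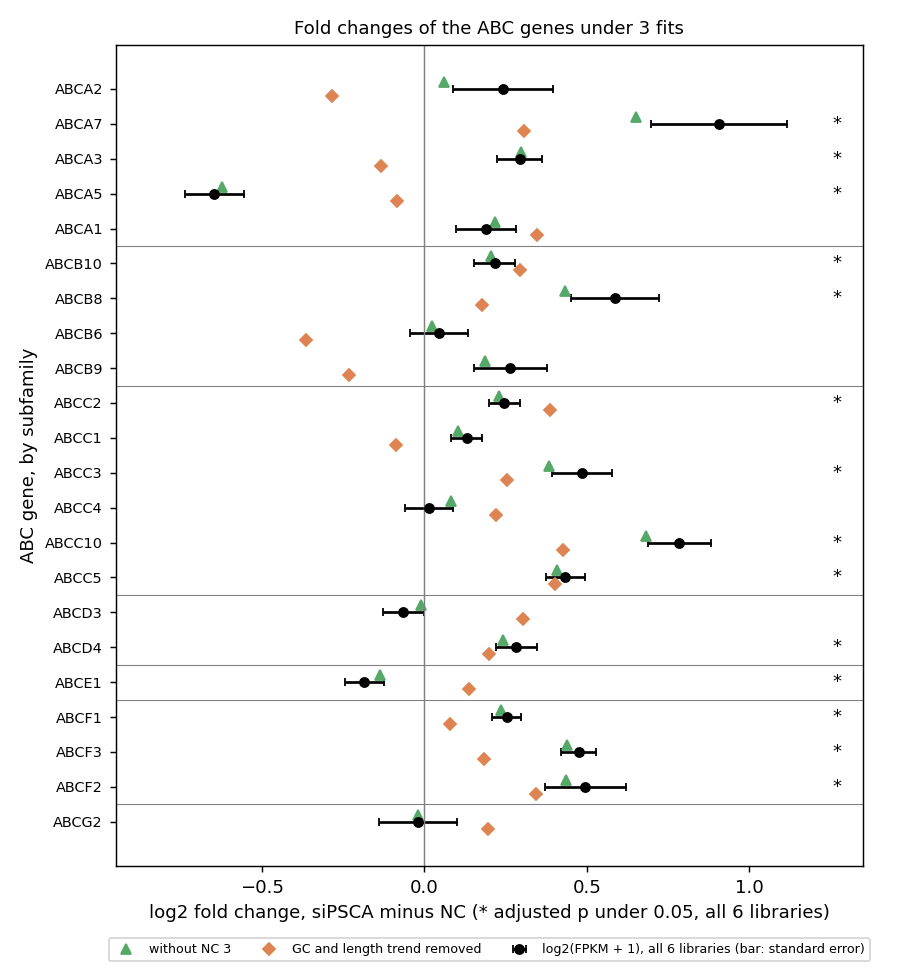
Log2 fold change (siPSCA minus NC) of the 22 tested ABC genes by subfamily: circles with standard error bars from all 6 libraries, triangles without NC 3, diamonds after removal of the GC and length trend, and asterisks for an adjusted p under 0.05 with all libraries. Triangles lie close to the circles for most genes and farthest off for ABCA7, whereas diamonds lie on the other side of 0 in 8 genes, among them ABCE1.

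Of the 21 ABC genes under the minimum, 10 had at least 10 reads in some library and 11 had at most 5 reads in each, among them ABCB5 with no read. In the limma fit with no FPKM minimum 0 of the 21 were called (1, ABCA8, had an unadjusted p under 0.05), and 11 of the 42 ABC genes with a read were (against 16.3% of all genes in that fit). ABCG4 and ABCG1, sterol exporters, were among the better measured. ABCG4 had 88, 83 and 57 reads in NC and 106, 96 and 110 in siPSCA, with no overlap (ratio of summed reads 1.36, interval 1.14 to 1.62). ABCG1 had 60, 98 and 73 reads against 83, 91 and 94, with overlap.

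ABCC6 (an ATP release transporter mutated in pseudoxanthoma elasticum) had 79, 103 and 63 reads in NC and 101, 126 and 91 in siPSCA, with overlap, and is uncertain because near-identical pseudogene copies can take its reads. ABCA12 (the ceramide transporter of keratinocytes) had 57, 61 and 65 reads against 82, 57 and 96, and ABCA4 (the retinal flippase) 17, 12 and 23 against 19, 29 and 21, both with overlap. The genes of bile and sterol secretion in hepatocytes and enterocytes, ABCB4, ABCB11, ABCG5 and ABCG8, the subunits of potassium channels ABCC8 and ABCC9, and ABCA6, ABCA13, ABCC12 and ABCD2 had 0 to 5 reads per library. For 7 ABC genes no library exceeded 3 reads, the limit that a count of 0 allows in a single library, so they lay at the edge of detection. Only ABCB5 had no read at all, and ABCC12 had 1 to 3 reads in every library.

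RefSeq windows were found for 35 of the 43 genes (53 windows in all) and not for ABCG1, ABCC3, ABCC8, ABCB5, ABCC1, ABCB4, ABCA8 and ABCA4. On both strands the GC box was found in 47.2% of these windows, against 44.95% of all 35116 windows. The E-box was found in 16.98%, against 7.26% of all. The E-box windows belong to 8 genes, ABCA1, ABCA12, ABCA9, ABCB6, ABCB9, ABCC10, ABCF1 and ABCG2, which include genes that rose (ABCC10 and ABCF1) and genes that were not called. A match of letters is a description, windows of a gene can overlap, and no test was made.

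TAP1 and TAP2, the ABC subunits that carry peptides to MHC class I in the endoplasmic reticulum, also rose. TAP1 had 11.3 ± 1.28 FPKM in NC and 19.6 ± 0.843 in siPSCA (SD, n = 3 each), and its log2 fold change was 0.75 (limma adjusted p = 0.0017), or 0.41 and still past the threshold when GC-corrected. TAP2 had 5.19 ± 0.0195 and 6.13 ± 0.143 FPKM (SD, n = 3 each), and its log2 fold change was 0.20 (limma adjusted p = 0.0158). CFTR, the chloride channel of the family, was at 0.0919 and 0.0668 FPKM, under the minimum.

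Genes that regulate or work with ABC proteins moved in both directions. For the lists that follow, the background is the 26.6% of all tested genes that rose and the 24.2% that fell, 50.7% in both directions. For GC-corrected counts it is 39.4% of 13792 genes, 2923 of them higher and 2510 lower. Of 18 tested regulators 8 rose and 3 fell (61.1% called), and GC-corrected 6 were higher and 4 lower. The largest rises were SREBF1 (sterol response, log2 fold change 1.14), KEAP1 (the repressor of NRF2, 0.98) and NR1H2 (the oxysterol receptor LXR beta, 0.85). The falls were NFE2L2 (NRF2 itself, -0.45), FOXO3 (-0.33) and ARNT (-0.29). All of these kept their sign and call when GC-corrected, at 0.61 for SREBF1, 0.52 for KEAP1, 0.37 for NR1H2, -0.36 for NFE2L2, -0.33 for FOXO3 and -0.24 for ARNT. Of 7 tested LXR target genes outside the family, 4 rose, with MYLIP at 0.72 and LPCAT3 at 0.45 beside SREBF1, and SCD fell by 0.33, while ABCA1 and ABCG1, both LXR targets, did not pass the threshold. In all 71.4% were called. GC-corrected, 3 of the 4 rises kept their call, and LPCAT3 was at 0.29. ABCA1 passed the threshold when GC-corrected, at 0.35, and ABCG1, under the FPKM minimum, was not in that fit.

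Of 17 tested partners of ABC proteins 5 rose and 6 fell (64.7% called), and the balance turned to 6 higher and 4 lower when GC-corrected. TAPBP, which holds the TAP complex to MHC class I, rose by 0.76 on the log2 scale, MMACHC, the cobalamin carrier downstream of ABCD4, by 0.49 and FECH, ferrochelatase, by 0.45. SLC25A37, the mitochondrial iron importer, fell by 0.65, EIF2S2, a subunit of eIF2, by 0.58 and PEX3, a peroxisome assembly factor, by 0.41. GC-corrected, TAPBP was at 0.42 and still called, and PEX3 was at -0.06 and did not pass.

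Of 11 tested drug transport genes outside the family 5 rose and 2 fell (63.6% called), and GC-corrected 3 were higher and 3 lower. SLC19A1, the reduced folate carrier, had a log2 fold change of 1.22, MVP, the major vault protein, of 0.79 and SLC29A2, a nucleoside transporter, of 0.76. SLCO1B3, an organic anion importer, was at -1.02 and SLC31A1, the copper importer, at -0.29. GC-corrected these stayed called at 0.65 for SLC19A1, 0.32 for MVP, 0.28 for SLC29A2, -0.65 for SLCO1B3 and -0.16 for SLC31A1. Of 12 tested glutathione conjugation genes, whose products load the ABCC pumps, 6 rose and 1 fell (58.3% called, near the share of all genes), and GC-corrected 8 were higher and 1 lower. The groups did not overlap in 58.3%, against 64.5% of all genes. GSTP1 rose by 0.88, from 168 to 309 FPKM on average, MGST3 by 0.38 and GSTK1 by 0.38, and GCLC, the catalytic subunit of the first enzyme of glutathione synthesis, fell by 0.42. GC-corrected, GSTP1 was at 0.36, MGST3 at 0.56, GSTK1 at 0.37 and GCLC at -0.25, all still called.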

How the data were processed

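RNA of 3 NC and 3 siPSCA libraries (NEBNext Ultra RNA kit, GRCh38 per the labels) was measured. The authors deposited FPKM values for 58735 genes, with positions identical to GENCODE release 29. Aligner, counting program and strand setting are not given in the sources used here. FPKM times gene length was a whole multiple of 1 read for 100% of values (tolerance 0.1), so reads were recovered. Groups follow the labels. R 4.3.3, limma 3.58.1 (lmFit, eBayes with trend), Python 3.11.15, pandas 2.3.3, numpy 2.4.6, scipy 1.17.1 and matplotlib 3.10.9 were used. The fit covered log2(FPKM + 1) of genes averaging 1 FPKM or more, and genes under it were fitted among all 34391 genes with a read. All adjusted p-values come from limma, 2-sided. GC content is that of the longest GENCODE transcript. Tested on simulated data of 13796 genes, the siPSCA against NC fit recovered 174 of 200 genes with an added log2 change of 1 (23 false calls) and 43 of 200 with 0.5 (7 false calls). The simulated reads were drawn independently, with the same extra spread for all genes and no GC trend. The false calls therefore do not cover the GC trend of the real libraries. Of 45 genes that the symbol rule finds, 2 are not reported here, nor is 1 gene of another list, and they enter no count or sum over ABC genes or lists. The members and gene lists were chosen with earlier results of these data known. Values by library were given for each pump past the minimum, each other called member and members under the minimum with 10 or more reads in a library, and of other lists the 3 largest rises and falls at most. Alternatives were another pseudocount, minimum, scaling and model, removal of the GC trend, a replicate block and each library left out. The GC-corrected fit, its form without NC 3 and the summed levels without NC 3 were added after the data had been seen.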

Additional observations from a re-analysis of the deposited data

How the results depend on the processing

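The 14 calls among 22 ABC genes became 4 when an unadjusted p under 0.05 with a log2 fold change over 0.5 was required, and the 4 pump calls became 1 (ABCC10). Left out in turn, single libraries gave 10 to 15 calls, 4 to 5 pump calls and medians from 0.22 to 0.27. The median was 0.30 with a pseudocount of 0.1, 0.33 with limma-voom on recovered reads, 0.20 after removal of the GC and length trend and 0.19 when NC 3 was also left out. Calls numbered 11 with no FPKM minimum, 13 in TPM, 14 with median-of-ratios scaling, 17 with limma-voom, 15 GC-corrected and 13 GC-corrected without NC 3. With a replicate block 14 were called, and the deviations of same-numbered libraries had correlations of 0.0956, 0.0133 and 0.134. These were not compared with correlations between libraries of different numbers, so they cannot decide whether the numbers mark pairs.

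Signs that turned when GC-corrected, with and then without NC 3, were ABCA2 -0.29 and -0.32, ABCA3 -0.13 and -0.017, ABCB6 -0.36 and -0.28, ABCB9 -0.23 and -0.17, ABCC1 -0.0861 and -0.0662, ABCD3 0.30 and 0.32, ABCE1 0.14 and 0.15, and ABCG2 0.20 and 0.16. ABCC4 was -0.0277 in TPM and, with a library left out, -0.0270 to 0.0835, below 0 without NC 1 or NC 2. ABCG2 was -0.103 to 0.0644, above 0 without NC 2 or siPSCA 2. The cause was not tested. ABCA7, ABCC2, ABCC3, ABCC5, ABCC10 and ABCF3 kept their direction and call under all 15 alternative fits. The rule above on unadjusted p and fold change is not among these fits. Under that rule ABCA7 and ABCC10 kept their call, and ABCC2, ABCC3, ABCC5 and ABCF3 lost it. Depth limits the 21 genes under the minimum.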
